A study of Mus musculus with 6 samples.

Results

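The basic helix-loop-helix (bHLH) genes and the Id genes of cultured mouse neural stem cells were followed under an siRNA against circHIPK2, a circular RNA made from the Hipk2 gene, whose own level the gene table does not give. The 9 genes Id1, Id2, Id3, Id4, Tcf4, Tcf12, Olig1, Olig2 and Hes6 were taken by symbol from the 54884 entries of the deposited table, with 1 entry each, and all 9 were above the limit of a mean of 1 FPKM (fragment counts scaled to transcript length and to the mapped total of the library) that left 13702 entries for testing. The cells were C57BL/6 neural stem cells from hippocampus at embryonic day 14, used between passages 3 and 8. In both groups they had been transduced with a lentivirus, which carried circCon siRNA (the control) or circHIPK2 siRNA, and poly(A) RNA was sequenced in 3 libraries per group. The labels do not say whether the libraries of a group came from separate cultures, so p-values measure the spread between libraries, which may be technical.

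Proteins of the bHLH class bind DNA as dimers at a short sequence called the E-box. The widely expressed E proteins, Tcf3, Tcf4 and Tcf12, serve as the common partners of tissue-specific factors such as Olig2. Id proteins keep the helix-loop-helix but lack the basic region that contacts DNA, so an E protein held by an Id protein cannot bind. In the nervous system high Id activity, driven by BMP signals among others, is associated with the stem cell and astrocyte states, proneural factors with neurons, and Olig1 and Olig2 with the oligodendrocyte lineage.

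The promoters of Id2, Id3 and Hes6 are shown because Id2 and Id3 were close in level and shared their highest library, whereas Hes6, a regulator of neurogenesis, varied least between libraries. Each is the 250 bases before a RefSeq transcript start (GRCm38.p6), read 5′ to 3′ on the gene's strand, with E-boxes (CANNTG, which reads the same on both strands) in capitals. The windows lie at chr12:25096093-25096342 (minus strand), chr4:136143572-136143821 (plus strand) and chr1:91414039-91414288 (minus strand, 1 of 2 Hes6 windows).
Id2: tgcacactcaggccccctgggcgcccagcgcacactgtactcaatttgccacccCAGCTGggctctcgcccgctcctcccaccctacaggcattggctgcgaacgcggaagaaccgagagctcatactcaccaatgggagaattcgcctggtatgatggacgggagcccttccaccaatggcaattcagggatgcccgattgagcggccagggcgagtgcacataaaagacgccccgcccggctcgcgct
Id3: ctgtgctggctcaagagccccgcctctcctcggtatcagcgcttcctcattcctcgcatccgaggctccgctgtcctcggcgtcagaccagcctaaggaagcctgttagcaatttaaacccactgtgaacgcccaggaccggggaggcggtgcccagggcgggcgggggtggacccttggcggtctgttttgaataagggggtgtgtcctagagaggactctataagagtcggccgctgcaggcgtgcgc
Hes6: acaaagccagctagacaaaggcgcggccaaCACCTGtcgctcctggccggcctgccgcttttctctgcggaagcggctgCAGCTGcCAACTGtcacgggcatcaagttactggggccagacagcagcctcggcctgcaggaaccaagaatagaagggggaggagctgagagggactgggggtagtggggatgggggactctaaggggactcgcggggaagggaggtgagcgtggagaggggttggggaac
The Id2 window held 1 E-box, CAGCTG, beginning 196 bases before the start. The Id3 window held 0. This Hes6 window held 3, beginning 220, 171 and 164 bases before the start, and the other Hes6 window held 1. Of 32851 RefSeq promoter windows of this length, 66.2% held at least 1 E-box and 31.8% held 2 or more, so a match is common and is a description of the letters alone.

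The libraries held the equivalent of between 18440000 and 21900000 fragments, estimated from the steps between low FPKM values. A single fragment on 1 kb of transcript would then count for 0.0457 to 0.0542 FPKM, well under the level of all 9 genes. Of 10 neural stem cell and radial glia markers, 8 had a mean of at least 1 FPKM, with Fabp7, a fatty acid binding protein of radial glia, the most abundant (mean 980 FPKM), while Prom1 and Gli3 were below it. Microglial, endothelial and erythroid markers, each list taken alone, summed to less than 1 FPKM in every library. A set of 9 entries that lie at the ribosomal RNA locus or vary with it took 0.321% to 0.58% of FPKM in the controls and 3.24% to 19.9% with circHIPK2 siRNA. The 7 liver markers summed to 33.4 to 55.4 FPKM in the controls and 1.95 to 2.21 FPKM with circHIPK2 siRNA. All 7 were called lower, beside 0.139% of all entries, among them Alb, serum albumin, and Apoa1, an apolipoprotein. This list was chosen with earlier results of these data known, so the count is a description and no test. The part of the liver transcripts in the values below was not tested, and values without the ribosomal RNA entries are given where they turn the direction of 1 of the 9 genes.

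Comparing circHIPK2 siRNA with the control asks which mRNAs change when the circle is silenced. No change was detected for any of the 9 genes. With limma and Benjamini-Hochberg adjustment over all entries, 0 of 9 passed an adjusted p of 0.05 and 0 of 9 had an unadjusted p below it (all entries 1.83% higher and 15.5% lower), and the adjusted p-values lay between 0.31 for Olig2 and 0.828 for Id1. Over all entries 0.255% passed, 16 higher (0.117%) and 19 lower (0.139%; 3 higher and 11 lower with median-of-ratios scaling, 4 and 12 with quantile normalization). The 3 siRNA libraries overlapped the 3 controls for all 9 genes. On the values as deposited 22.1% of entries lay entirely lower and 2.65% entirely higher with the siRNA. These shares were 10.1% and 10.1% with median-of-ratios scaling, and 4.29% and 14.0% without the ribosomal RNA entries. At an unadjusted p below 0.05 (limma), 937 entries were lower and 891 higher with the former, and 393 and 1208 with the latter. In both settings all 9 genes still overlapped. The log2 fold change was below 0 for 8 of the 9 genes, beside 77.1% of all entries, but for 6 with median-of-ratios scaling, 3 with quantile normalization and 2 once the ribosomal RNA entries were removed and the columns rescaled. Their median was −0.14 and that of all entries −0.12, so that 5 of the 9 lay below the common median. Every fold change is of log2(FPKM + 1), which makes the change of a weakly expressed gene such as Id4 look smaller than it was.

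**Figure D1:**
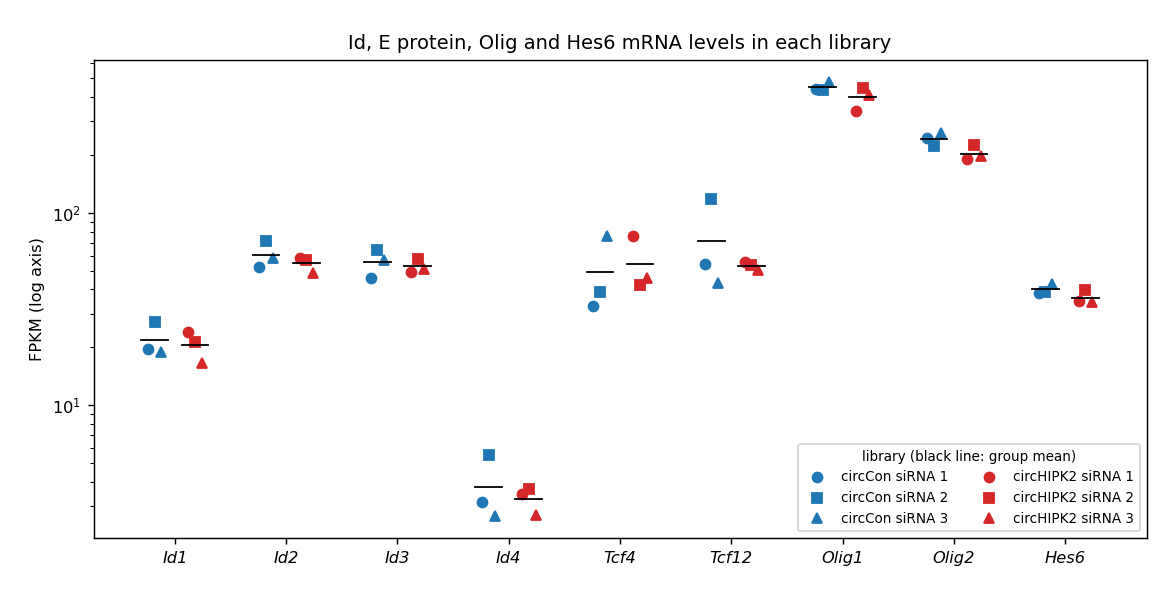
FPKM (log axis) of the 9 genes in each of the 6 libraries, with blue symbols for circCon siRNA, red for circHIPK2 siRNA, a symbol shape for each replicate number and a black line for each group mean. Olig1 and Olig2 stand highest, Id4 lowest, the groups overlap for all 9 genes, and single libraries of Tcf4 and Tcf12 lie far from their group.

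The levels, which FPKM makes comparable between genes, spanned 2 orders of magnitude. Olig1 (mean 425 FPKM) and Olig2 (223 FPKM) were the highest of the 9 in all 6 libraries, at percentiles 99.4 and 98.6 of all entries tested. Id1 (21.3 FPKM) and Id4 (3.53 FPKM) were the lowest in all 6. Between them lay Tcf12 (62.5 FPKM), Id2 (57.7 FPKM), Id3 (54.2 FPKM), Tcf4 (51.8 FPKM) and Hes6 (38.1 FPKM). The order of these 5 changed from library to library, so that neighbours among them did not differ beyond their spread.

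Values below are given in the order of libraries 1, 2 and 3 of each group. The Id inhibitors were at similar levels in both groups, and all 4 were highest in the same control library. Id1 had 19.6, 27.2 and 19.0 FPKM under circCon siRNA and 24.0, 21.4 and 16.7 FPKM under circHIPK2 siRNA. Id2, which like Id1 holds back differentiation in many tissues, had 52.6, 71.3 and 58.5 FPKM in the controls and 58.6, 56.9 and 48.5 FPKM with the siRNA. Id3 had 45.9, 64.2 and 56.9 FPKM in the controls and 49.5, 57.8 and 51.0 FPKM with the siRNA. In each of these genes control library 2 was above the other 5 libraries, and the groups overlapped. Id4, expressed in neural precursors, was far lower, with 3.17, 5.51 and 2.65 FPKM in the controls and 3.48, 3.66 and 2.70 FPKM with the siRNA, and control library 2 was again the highest. Use of strand in the counting is not stated, and 2 entries antisense to Id4 in GENCODE M21 had means of 0.257 and 0.34 FPKM.

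The group means of the Id genes were 21.9 ± 4.59 and 20.7 ± 3.73 FPKM for Id1 and 60.8 ± 9.57 and 54.7 ± 5.38 FPKM for Id2 (control and siRNA, SD, n = 3 each). They were 55.7 ± 9.26 and 52.8 ± 4.44 FPKM for Id3 and 3.78 ± 1.52 and 3.28 ± 0.508 FPKM for Id4. These differences were within the spread of the controls. Log2 fold changes were −0.077 (SE 0.17) for Id1, −0.14 (SE 0.13) for Id2, −0.066 (SE 0.14) for Id3 and −0.12 (SE 0.21) for Id4. The 95% intervals of limma ran from 0.723-fold to 1.24-fold for Id1, 0.732-fold to 1.12-fold for Id2, 0.77-fold to 1.18-fold for Id3 and 0.662-fold to 1.28-fold for Id4. Smaller changes in either direction lie within these bounds.

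The sign of all 4 depended on the scaling, and that of 3 also on control library 2. With the 9 ribosomal RNA entries removed and the columns rescaled, the log2 fold changes were 0.12 for Id1, 0.061 for Id2, 0.14 for Id3 and 0.052 for Id4, beside a median of 0.062 over all entries. Quantile normalization gave 0.060 for Id1, 0.045 for Id2, 0.11 for Id3 and −0.034 for Id4. On the values as deposited but without control library 2, those of Id1, Id3 and Id4 were 0.082, 0.042 and 0.13, and that of Id2 was below 0. Without siRNA library 3 that of Id1 was 0.063. Control library 2 exceeded the mean of the other controls 1.41-fold for Id1, 1.28-fold for Id2, 1.25-fold for Id3 and 1.89-fold for Id4, beside a median ratio of 0.947 over all entries tested. It was the highest of the 6 libraries for 15.2% of all entries, and for Tcf12 among the other 5 genes. Among the BMP pathway genes control library 2 was the highest for 3 of 11 tested. The part of BMP signals in the Id values was not tested.

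Several astrocyte markers varied between libraries along with Id1 and Id4, a pattern chosen after the values were seen. Control library 2 and siRNA libraries 1 and 2 were the 3 highest for Id1 and Id4, and for 4 of 6 astrocyte markers (Gfap, Aqp4, Aldoc and Gjb6). They were also the 3 highest for 2 of 14 oligodendrocyte lineage genes, 1 of 8 stem cell and radial glia markers and 4.35% of all entries. As the pattern was chosen after the values were seen, these shares are no test of a link. Gfap, the intermediate filament of astrocytes, had 76.0, 181 and 70.5 FPKM under circCon siRNA and 262, 211 and 83.9 FPKM under circHIPK2 siRNA. Aqp4, the water channel of astrocyte endfeet, had 7.68, 17.0 and 8.35 FPKM in the controls and 14.2, 14.2 and 7.30 FPKM with the siRNA. The 6 libraries fell in the same order for Id1 as for Gjb6, an astrocyte connexin. They also fell in the same order for Id2 as for S100b, a calcium-binding protein of astrocytes. Library orders were listed only for the 9 genes and the 6 astrocyte markers, so a match with any other gene could not appear. How many of all entries share these orders was not counted, and the likeness is no test of a link. Over all entries compared, those nearest in profile were Hist1h2bc for Id1 and Rab33b for Id2. Aldoc, the most abundant of the list, had means of 193 and 208 FPKM, and the summed level of the 6 markers was 299 to 514 FPKM in the controls and 281 to 615 FPKM with the siRNA. Aldh1l1 differed in being highest in control library 1. Of the 6 markers 0 passed the test and 0 had an unadjusted p below 0.05. In such bulk libraries more astrocyte-like cells and more of each mRNA per cell cannot be told apart, and the part of either in the Id values was not tested.

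**Figure D2:**
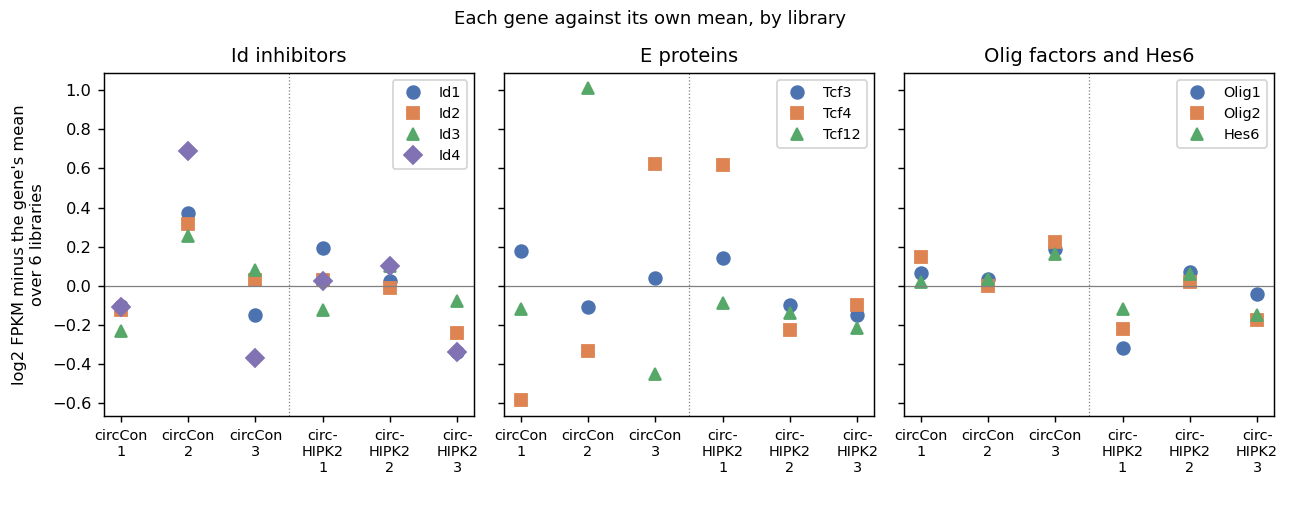
Log2 FPKM of each gene minus its own mean over the 6 libraries, with control libraries left and circHIPK2 siRNA libraries right of the dotted line. All 4 Id genes are highest in control library 2, Tcf12 is high in that library alone, Tcf4 is high in control library 3 and siRNA library 1, and Olig1, Olig2 and Hes6 vary less than Tcf4 and Tcf12.

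Tcf4 and Tcf12 varied more between replicates than between groups. Tcf4 had 32.8, 39.0 and 75.7 FPKM under circCon siRNA and 75.5, 42.0 and 46.0 FPKM under circHIPK2 siRNA. Its high values were thus in 1 library of each group. Tcf12 had 54.1, 118 and 43.1 FPKM in the controls and 55.4, 53.4 and 50.5 FPKM with the siRNA, with control library 2 alone standing apart. Tcf3, an E protein known for its part in B cell development and not among the 9, had 26.5, 21.7 and 24.1 FPKM in the controls and 25.8, 21.8 and 21.1 FPKM with the siRNA, without such a library.

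The highest library exceeded the lowest 2.31-fold for Tcf4 and 2.75-fold for Tcf12, against 1.26-fold for Tcf3. The within-group SD of log2(FPKM + 1) was 0.543 for Tcf4 and 0.535 for Tcf12, above 98.6% and 98.4% of the entries whose mean level was within 2-fold of theirs. For Tcf3 it was 0.144, above 57.4%. Log2 fold changes were 0.19 (SE 0.32, adjusted p = 0.759, limma) for Tcf4 and −0.29 (SE 0.31, adjusted p = 0.628, limma) for Tcf12. The intervals, from 0.693-fold to 1.88-fold for Tcf4 and from 0.499-fold to 1.34-fold for Tcf12, were the widest of the 9. Without control library 2 the log2 fold change of Tcf12 was 0.13. Without the ribosomal RNA entries it was −0.087 for Tcf12 and 0.40 for Tcf4. That of Tcf4 was −0.046 without control library 1, −0.063 without siRNA library 1 and 0.55 without control library 3.

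**Figure D3:**
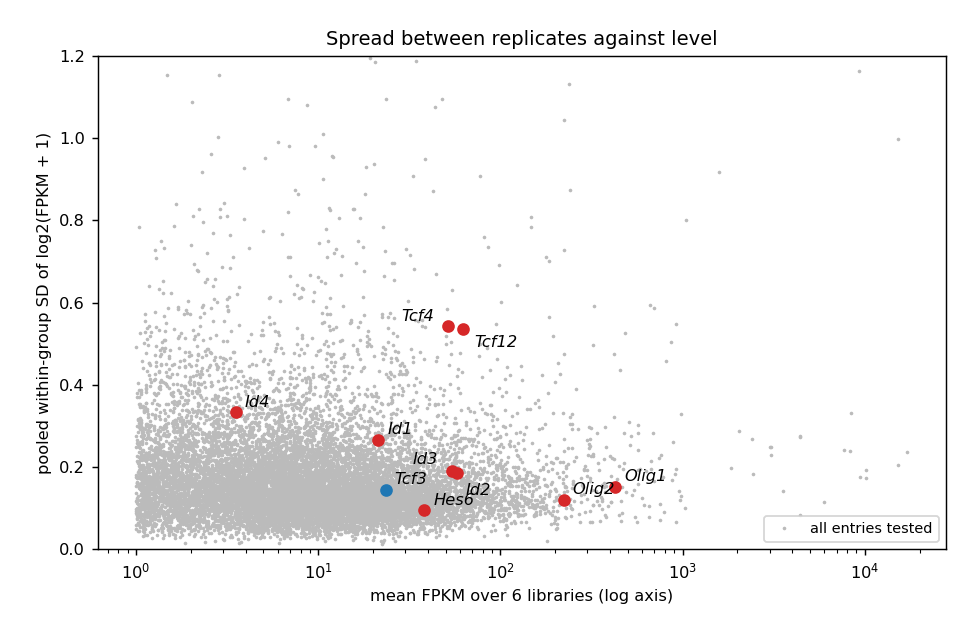
Pooled within-group SD of log2(FPKM + 1) against mean FPKM (log axis) for all entries tested (grey), the 9 genes (red) and Tcf3 (blue), leaving 11 grey entries above the plotted range. Tcf4 and Tcf12 lie above nearly all entries of their level, at 0.543 and 0.535, while Hes6, Olig1 and Olig2 lie low among theirs.

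Tcf4 and Tcf12 are also the genes of the 9 with the most annotated transcripts, 62 and 21 in GENCODE M21, against 14 for Tcf3, 5 for Hes6 and 1 to 3 for the Id and Olig genes. The table gives 1 value per gene, so isoforms were not measured here, and the part of transcript number in the spread was not tested.

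The ratio of Id mRNA to E protein mRNA overlapped between the groups, and protein was not measured here. The 4 Id genes summed to 121, 168 and 137 FPKM under circCon siRNA and to 136, 140 and 119 FPKM under circHIPK2 siRNA. The 3 E proteins summed to 113, 179 and 143 FPKM in the controls and 157, 117 and 118 FPKM with the siRNA. The ratio of the sums was 1.07, 0.94 and 0.959 in the controls and 0.866, 1.19 and 1.01 with the siRNA, so the siRNA libraries lay on both sides of the control range. Control library 2, highest in Id mRNA, was also highest in E protein mRNA, through Tcf12. As a score over chosen genes, this ratio was not tested.

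Olig1 and Olig2, transcription factors of the oligodendrocyte lineage, were abundant in every library and did not pass the test. Their genes are neighbours, with 1 long noncoding RNA gene listed between them by RefSeq. Olig1 had 442, 433 and 481 FPKM under circCon siRNA and 339, 444 and 411 FPKM under circHIPK2 siRNA. Olig2, which specifies oligodendrocyte precursors and motor neurons, had 245, 221 and 259 FPKM in the controls and 190, 224 and 196 FPKM with the siRNA. In both genes siRNA libraries 1 and 3 lay below the 3 controls and siRNA library 2 lay within them. Their ratio was steadier than either level, at 1.80, 1.96 and 1.86 in the controls and 1.79, 1.98 and 2.09 with the siRNA.

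Means were 452 ± 25.5 and 398 ± 53.7 FPKM for Olig1 and 242 ± 19.0 and 203 ± 18.2 FPKM for Olig2 (SD, n = 3 each). Log2 fold changes were −0.19 (SE 0.13, adjusted p = 0.462, limma) for Olig1 and −0.25 (SE 0.12, adjusted p = 0.31, limma) for Olig2, with 95% intervals from 0.708-fold to 1.08-fold and from 0.699-fold to 1.01-fold. The exact two-sided permutation p was 0.3 for Olig1 and 0.2 for Olig2, where 3 against 3 libraries cannot give less than 0.1. Without siRNA library 2 both genes lay entirely below the controls, as 42.4% of all entries then did, and neither passed the test. The siRNA libraries low in Olig mRNA were 1 and 3. There the 9 ribosomal RNA entries took 11.5% and 19.9% of FPKM, against 3.24% in siRNA library 2. Both Olig genes were lowest in siRNA library 1, and that share was highest in siRNA library 3. With these 9 entries removed and the columns rescaled, the log2 fold changes were 0.016 for Olig1 and −0.044 for Olig2. The median over all entries was then 0.062. The part of the ribosomal RNA share in the Olig values was not tested. Gm15966, antisense to Olig1, had a mean of 0.0335 FPKM.

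**Figure D4:**
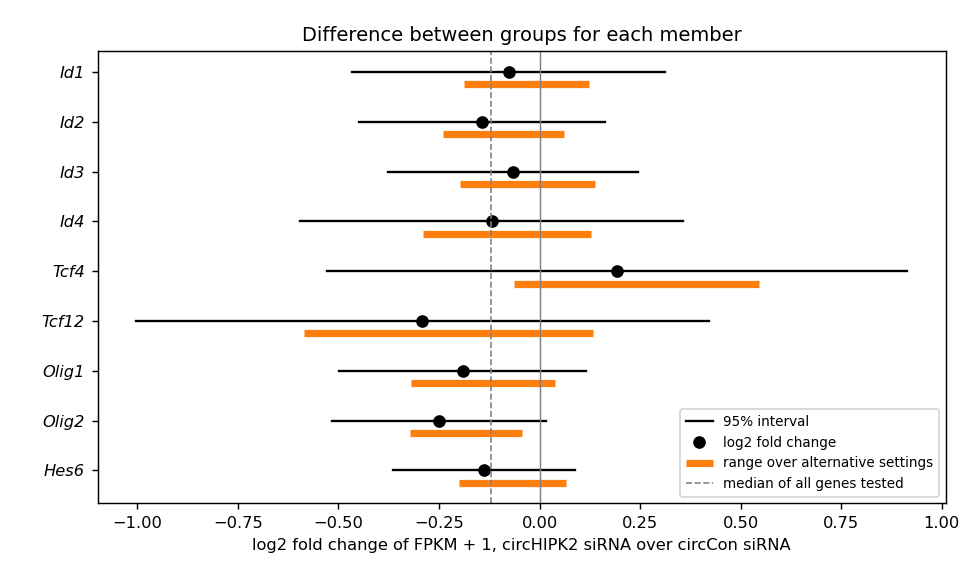
Log2 fold change of FPKM + 1 (circHIPK2 siRNA over circCon siRNA) for each gene with its 95% limma interval (black) and the range over the alternative settings (orange). Every interval includes 0, the points of 8 genes lie below 0 on the values as deposited (2 without the ribosomal RNA entries), and the dashed line marks the median of all entries at −0.12.

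Hes6, a Hes family member that favours neuronal differentiation and opposes Hes1, was the steadiest of the 9. It had 38.5, 38.9 and 42.5 FPKM under circCon siRNA and 35.0, 39.6 and 34.3 FPKM under circHIPK2 siRNA, and siRNA library 2 overlapped the controls. Its highest library exceeded its lowest 1.24-fold. The log2 fold change was −0.14 (SE 0.10, adjusted p = 0.468, limma), with an interval from 0.777-fold to 1.06-fold. It was 0.065 without the ribosomal RNA entries and 0.024 with quantile normalization. Without siRNA library 2 Hes6, like Olig1 and Olig2, lay entirely below the controls, as 42.4% of all entries then did, and did not pass the test. Of the 12 Hes, Hey and Bhlhe repressors, 7 were tested and 0 passed, with a median log2 fold change of −0.17. At an unadjusted p below 0.05 (limma) 1 of the 7 was lower, beside 15.5% of all entries. Hes5, a Notch effector of neural progenitors that was picked on its values, came closest to the threshold of that list (log2 fold change −0.71, SE 0.12, adjusted p = 0.0666, limma). It had 16.9, 19.2 and 15.4 FPKM in the controls and 11.3, 9.58 and 9.34 FPKM with the siRNA. The groups did not overlap, and 22.1% of all entries lay entirely lower on the values as deposited. Its fold change was not followed through the alternative settings.

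Of the proneural and neuronal bHLH factors reported here, 18 had a mean below 1 FPKM and were not tested, and 6 of these were listed at 0 in every library. The neurogenic factors Neurog2 and Neurod1 had means of 0.137 and 0.724 FPKM. Olig3 was listed at 0 in every library.

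Genes around the family were also below the threshold. Of 14 oligodendrocyte lineage genes tested 0 passed, with a median log2 fold change of −0.34, or −0.22 relative to the median of all entries. On the values as deposited 6 had an unadjusted p below 0.05, all lower, beside 15.5% of all entries. Sox8, the most abundant of them and a SoxE factor of glial development, had 95.0, 97.4 and 94.3 FPKM in the controls and 74.7, 86.1 and 59.6 FPKM with the siRNA (adjusted p = 0.224, limma). Of 11 BMP pathway genes tested 0 passed (2 at an unadjusted p below 0.05, lower), with a median of −0.092. Bmp7, the most abundant and a ligand able to induce Id genes, had 64.8, 45.0 and 62.4 FPKM in the controls and 39.7, 48.0 and 39.2 FPKM with the siRNA, which overlapped (adjusted p = 0.239, limma). Among 10 neuronal genes downstream of proneural factors 0 passed (1 higher and 2 lower at an unadjusted p below 0.05), with a median of −0.19, and Map2, a dendritic microtubule protein, had 106, 106 and 115 FPKM in the controls and 88.4, 93.7 and 84.8 FPKM with the siRNA (adjusted p = 0.209, limma). Of 8 stem cell and radial glia markers tested 0 passed, and 5 had a log2 fold change above 0, with a median of 0.076, or 0.20 relative to the median of all entries. The most abundant, Fabp7, went the other way and was the 1 of the 8 with an unadjusted p below 0.05. It had 1127, 1545 and 946 FPKM in the controls and 881, 793 and 592 FPKM with the siRNA (adjusted p = 0.211, limma). Of the microglial, endothelial and erythroid markers 0 reached the limit for testing. Pdgfra, the growth factor receptor of oligodendrocyte precursors, also on the fibroblast list and its only tested member, had 14.0, 19.4 and 11.3 FPKM in the controls and 11.1, 11.6 and 5.28 FPKM with the siRNA (adjusted p = 0.278, limma).

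For each gene the entry with the most similar profile over the 6 libraries was sought among 11395 others, by the root mean square difference of log2(FPKM + 1) after centring each profile on its own mean. These were Hist1h2bc for Id1 (0.0283), Rab33b for Id2 (0.0255), Cbx8 for Id3 (0.0387) and S1pr1 for Id4 (0.0752). For Tcf4 and Tcf12 the nearest were Coq7 (0.145) and Stag2 (0.212), farther away than for the others. They were Lrp12 for Olig1 (0.0299), Lmo1 for Olig2 (0.0223) and Pcdhgc3 for Hes6 (0.016). Among the 9 genes themselves, Id4 ranked 2 among the entries nearest to Tcf12 (0.215), Id1 ranked 19 from Id4 and Olig2 ranked 300 from Olig1. With 6 libraries, and control library 2 high in several of these genes, such likeness describes these libraries alone.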

How the data were processed

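FPKM values per gene were used as deposited by the authors. HISAT, StringTie and edgeR with the mm9 build are named, per the submitters' processing notes; no version, annotation or use of strand is given in the sources used here. Raw counts were not used. Of the entries, 98.5% carried a GENCODE M21 symbol. Depth was estimated by taking low FPKM values of genes with a single transcript of at least 500 nt as whole multiples of 1 fragment; 39.6% to 43.6% of these lay within 0.05 of a whole number.

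Entries averaging 1 FPKM or more were compared as log2(FPKM + 1) with limma 3.58.1 in R 4.3.3 (mean-variance trend, two-sided, Benjamini-Hochberg adjustment, threshold 0.05), with exact permutation tests for single genes. The fit was tested on simulated data. The 9 genes and the 15 lists were chosen with earlier results of these data known. By rule, the genes named besides the 9 were, per list, up to 2 called genes per direction or else the most abundant, and each gene's nearest profile. Named outside this rule were Tcf3, Olig3, Prom1, Gli3, Neurog2, Neurod1, Hes5, the antisense Gm15966 and the astrocyte markers besides Aldoc. Hes5 and the astrocyte pattern were chosen after the values were seen. There were 18 alternatives. Promoter windows were taken for 6 of the 9 genes. Chromosome 18, which holds Tcf4, was left out of the windows, and the RefSeq windows used held none for Id1 and Olig1. A result for 1 gene of the fixed lists is not reported here.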

Additional observations from a re-analysis of the deposited data

How the results depend on the processing

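In 0 of 18 alternatives was any of the 9 genes called (lowest adjusted p 0.0916, for Olig2 with library weights, limma). Unadjusted p-values below 0.05 (limma) occurred for Olig1 and Olig2, both lower, with library weights, as for 3482 of 13702 entries that were lower there. They occurred for Olig2, again lower, without control library 2 (2008 of 13711 entries lower) or siRNA library 2 (2965 of 13698 lower). Tcf4 had one, higher, without control library 3 (272 of 13701 entries higher). Olig2 kept its sign throughout, at log2 fold changes from −0.32 to −0.044. Id4 was not tested at a mean of at least 5 FPKM.

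Signs turned mostly with the scaling, to log2 fold changes of 0.055 for Id1 and 0.070 for Id3 with median-of-ratios scaling, and 0.060 for Id1, 0.045 for Id2, 0.11 for Id3, 0.038 for Olig1 and 0.024 for Hes6 with quantile normalization. Median-of-ratios scaling moved the median of all entries from −0.12 to −0.0012. Without the ribosomal RNA entries they were 0.12 for Id1, 0.061 for Id2, 0.14 for Id3, 0.052 for Id4, 0.016 for Olig1 and 0.065 for Hes6. Library weights gave 0.11 for Id1 and 0.0071 for Id4. Leaving out 1 library gave −0.19 to 0.082 for Id1, −0.20 to 0.042 for Id3, −0.29 to 0.13 for Id4, −0.063 to 0.55 for Tcf4 and −0.58 to 0.13 for Tcf12. The sign turned there without control library 1 (Tcf4), control library 2 (Id1, Id3, Id4 and Tcf12), siRNA library 1 (Tcf4) and siRNA library 3 (Id1).

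Over all entries 16 were called higher and 19 lower. Leaving out 1 library gave 2 to 15 higher and 6 to 23 lower. There were 7 higher with no filter, 8 lower at a mean of at least 5 FPKM, 3 and 11 with median-of-ratios scaling, 4 and 12 with quantile normalization, 8 higher with robust moderation, and 55 and 265 with library weights. The cause was not tested. Replicate numbers are shared between groups, but same-numbered libraries deviated together with correlations across genes of only 0.046, 0.0152 and 0.133, and not every library correlated best with its own number. With the replicate number as a block 23 entries were higher and 23 lower, and 0 of the 9 genes were called (lowest adjusted p 0.407).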
